A study of Homo sapiens with 6 samples.

Results

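RAB proteins are the largest branch of the RAS-like small GTPases and direct traffic between the membranes of a cell. The RAB genes were taken by name, as every gene of the tables whose symbol is RAB followed by a number and at most 1 letter. Of 64 names that match, RAB1C is a pseudogene and was left out, and RAB7B had no row and was not analysed here. The remaining 62 RAB genes are the members described below, out of 56632 genes in the tables. Poly(A) RNA was measured in HCT116, an established human colorectal cancer cell line, with 3 libraries of cells given a pool of small interfering RNAs against Matrin3 (siMatrin3) and 3 of cells given a negative control siRNA (siCTRL). Both groups were transfected at 2 times, 72 hours apart, with 48 hours to harvest per the labels and a reseeding before harvest per the methods. The methods call the libraries biological triplicates. MATR3 encodes Matrin3, a protein of the nucleus that binds RNA and shapes splicing. The libraries held 40808173 to 54185650 expected counts, which are read counts estimated by sharing ambiguous reads among genes.

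A RAB protein cycles between a GDP-bound form, which the chaperone GDI keeps in the cytosol, and a GTP-bound form on a membrane. Guanine nucleotide exchange factors (GEFs) switch a RAB on, GTPase-activating proteins (GAPs) switch it off, and effectors bind the active form to move, tether or fuse vesicles. A lipid added by the RAB prenyl transferase anchors the protein. RAB1, RAB2 and RAB6 work between the endoplasmic reticulum and the Golgi. RAB3, RAB8, RAB10 and RAB27 act in secretion at the cell surface. RAB5 and RAB7 mark early and late endosomes, and RAB4, RAB11 and RAB25 return cargo to the surface, with RAB25 and RAB17 known from epithelial cells.

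MATR3, the knockdown target, measured 186.4, 180.2 and 176.5 TPM in the siCTRL libraries and 95.2, 112.0 and 110.7 TPM in the siMatrin3 libraries. TPM is transcript abundance per length, with 1 fixed total for each library. MATR3 fell by 0.93 on the log2 scale (SE 0.0647, edgeR adjusted p = 7.67e-05), a change of -47.5%. Across all genes, edgeR called 1849 of 16786 tested genes at an adjusted p under 0.05, 847 higher and 1002 lower in siMatrin3, and with upper quartile scaling the split was 636 higher and 1146 lower. Of 6 epithelial markers, 4 reached 1 TPM in every library (EPCAM, KRT8, KRT18 and CDH1). CDH17 reached at most 0.04 TPM and LGALS4 at most 1.32 TPM. The epithelial list summed to 2457 to 2638 TPM in siCTRL and 2201 to 2419 TPM in siMatrin3. The fibroblast list summed to at most 19.1 TPM with 3 of 6 genes at 0 in every library. Most of it was COL1A1, at 13.57 to 19.03 TPM. The leukocyte list summed to at most 18.8 TPM with PTPRC at 0, and most of it was CD68, at 11.52 to 18.18 TPM. The endothelial list summed to at most 0.260 TPM.

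Of the 62 RAB genes, 52 passed the filter on low counts and were tested. The other 10 (RAB34, RAB32, RAB9B, RAB33A, RAB41, RAB3C, RAB39A, RAB39B, RAB6D and RAB44) reached at most 0.49 TPM in any library, and RAB32 was at 0 in all 6. Exons of 8 members (RAB24, RAB27A, RAB3D, RAB40C, RAB43, RAB4B, RAB5C and RAB8A) overlap another gene on the same strand, which makes their counts less certain. In the siMatrin3 cells 7 RAB genes fell and 0 rose: RAB3B, RAB27B, RAB6B, RAB27A, RAB20, RAB12 and RAB38. These 7 are 13.5% of the RAB genes tested, against 11.0% of all genes tested called in either direction and 12.8% of protein-coding genes. The share called lower alone was 5.97% over all genes and 6.83% over protein-coding genes, and the share called higher was 5.05%. At an unadjusted p under 0.05 there were 13 of the 52 RAB genes, close to the 26.0% of all genes tested. Of the 13, 12 were lower, and the share lower alone at this cut was not computed over all genes. The median log2 fold change was -0.042 over the RAB genes, with 32 below and 20 above 0, and -0.001 over all genes. No test was made over the family as a whole. The number called was 4 without siCTRL replicate 1, siCTRL replicate 3, siMatrin3 replicate 2 or siMatrin3 replicate 3, and it was 1 when an offset for the length of each gene's transcripts was added to the fit.

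Sequences upstream of the start site are shown for the 3 RAB genes of regulated secretion that fell, since RAB27A and RAB27B are paralogues and RAB3B had the smallest p of the family. They come from RefSeq on GRCh38.p14, cover the 250 bases before the annotated start, and are written 5′ to 3′ on the strand of the gene. Capitals mark a GC box (GGGCGG, or CCGCCC on the other strand) or an AP-1 site (TGANTCA). RAB3B lies at chr1:51990701-51990950 on the minus strand, RAB27A at chr15:55319124-55319373 on the minus strand and RAB27B at chr18:54717607-54717856 on the plus strand.
RAB3B: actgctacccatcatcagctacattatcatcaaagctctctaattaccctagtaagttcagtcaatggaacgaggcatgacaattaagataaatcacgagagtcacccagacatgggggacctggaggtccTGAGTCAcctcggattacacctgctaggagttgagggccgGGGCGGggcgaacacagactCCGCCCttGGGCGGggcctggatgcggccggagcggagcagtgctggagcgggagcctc
RAB27A: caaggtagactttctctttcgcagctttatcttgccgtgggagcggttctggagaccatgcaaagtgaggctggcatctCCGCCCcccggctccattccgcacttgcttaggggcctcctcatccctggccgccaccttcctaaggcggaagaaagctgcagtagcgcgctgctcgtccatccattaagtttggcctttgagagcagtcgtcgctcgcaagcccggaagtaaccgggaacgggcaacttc
RAB27B: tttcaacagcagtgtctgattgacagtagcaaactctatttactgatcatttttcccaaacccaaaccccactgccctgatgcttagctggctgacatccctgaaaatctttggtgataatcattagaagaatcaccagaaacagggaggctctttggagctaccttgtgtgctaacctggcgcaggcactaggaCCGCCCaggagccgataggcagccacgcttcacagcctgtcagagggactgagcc

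The RAB27B stretch had a GC content of 50.4% with 4 CpG dinucleotides, against 58.8% with 17 for RAB27A and 56.8% with 12 for RAB3B. Promoter entries were found for 42 of the 52 RAB genes tested, with a median GC content of 65.0%, and for 4 of the 7 called (these 3 and RAB6B, 65.2%). The median over 27305 promoters was 58.0%. Counting both strands, a GC box was in 35 of the 42 RAB stretches (83.3%), including those of all 4 called genes, against 42.3% of all promoters. The set of all promoters was not matched to the tested RAB genes for expression or GC content. The median CpG count was 21.0 in the RAB stretches and 11.0 in all promoters, and its part in the motif shares was not tested. The AP-1 site was in 2 RAB stretches (4.76%, all promoters 6.60%), of which RAB3B is the called gene. An E-box (CACGTG) was in 5 of 42 (11.9%, all promoters 6.49%), a CCAAT box (CCAAT) in 12 (28.6%, all 33.0%), a TATA box (TATAAA) in 2 (4.76%, all 11.1%) and a CRE (TGACGTCA) in 1 (2.38%, all 1.77%), and none of these 4 motifs was in a called gene's stretch. No motif's letters are contained in those of another. A letter match is a description of the window and not a bound site.

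RAB3B (ENSG00000169213), which acts in the regulated exocytosis of secretory granules, measured 73.4, 65.8 and 68.7 CPM (counts scaled to the TMM-adjusted library size) in siCTRL and 48.1, 47.9 and 46.6 CPM in siMatrin3. The lowest siCTRL library stood well above the highest siMatrin3 library. In TPM, RAB3B went from 6.71 ± 0.306 to 4.54 ± 0.0611 (SD, n = 3). Its log2 fold change was -0.54 (SE 0.0476, 95% interval -0.65 to -0.44, edgeR adjusted p = 0.000215), a level change of -31.4%. RAB3B kept its call in all 16 alternative fits. Its weighted transcript length, the mean length of a gene's transcripts weighted by their estimated share, was 12844 bases on average in both groups.

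RAB27A and RAB27B tether secretory granules and exosome-bearing compartments at the plasma membrane. RAB27B (ENSG00000041353) measured 3.79, 3.69 and 4.57 CPM in siCTRL and 2.21, 2.23 and 2.53 CPM in siMatrin3, from 96 to 222 expected counts a library. The groups did not overlap in CPM, and RAB27B fell by 0.79 on the log2 scale (SE 0.131, interval -1.08 to -0.50, edgeR adjusted p = 0.00510). In TPM the groups did overlap, with 0.98, 0.64 and 0.90 in siCTRL and 0.37, 0.54 and 0.74 in siMatrin3, and its weighted transcript length ran from 4336 to 7281 bases between libraries. With the length offset the log2 fold change was -0.63 (adjusted p = 0.188). RAB27A (ENSG00000069974) measured 11.8, 12.3 and 11.7 CPM in siCTRL and 9.32, 9.43 and 9.85 CPM in siMatrin3, again without overlap. It fell by 0.32 on the log2 scale (SE 0.0659, interval -0.47 to -0.18, edgeR adjusted p = 0.0136). Its TPM values overlapped at 6.07, 6.80 and 6.72 against 5.06, 6.34 and 4.67, and with the length offset the log2 fold change was -0.27 (adjusted p = 0.216). RAB27A shares exon sequence with PIGBOS1 on the same strand, so part of its reads may have been divided between the genes.

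RAB6B (ENSG00000154917), a Golgi RAB best known from neurons, measured 25.0, 23.4 and 26.9 CPM in siCTRL and 20.6, 21.1 and 20.6 CPM in siMatrin3. It fell by 0.27 on the log2 scale (SE 0.0559, edgeR adjusted p = 0.0133), with CPM groups that did not overlap. Its TPM values of 9.69, 7.61 and 8.44 in siCTRL and 8.62, 7.43 and 8.08 in siMatrin3 did overlap. The weighted transcript length of RAB6B was 3335, 3992 and 4080 bases in siCTRL and 3046, 3640 and 3283 bases in siMatrin3 (log2 difference -0.19, limma adjusted p = 0.887). With the length offset the log2 fold change was -0.075 (adjusted p = 0.715), so the call for RAB6B was made on counts and not on abundance per length. It was also lost when siCTRL replicate 3 was left out (adjusted p = 0.0606) and when siMatrin3 replicate 3 was (0.0589).

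RAB20, RAB38 and RAB12 had smaller margins. RAB20 (ENSG00000139832), a RAB of endosomes and maturing phagosomes, measured 9.33, 9.48 and 9.33 CPM in siCTRL and 6.89, 7.20 and 8.11 CPM in siMatrin3, a log2 change of -0.34 (SE 0.0813, adjusted p from edgeR 0.0240). Its siCTRL values lay close together, and no siMatrin3 value reached them. The RAB20 call was lost without siCTRL replicate 1 (adjusted p = 0.0518), siCTRL replicate 2 (0.0510), siCTRL replicate 3 (0.0749), siMatrin3 replicate 1 (0.0767) or siMatrin3 replicate 2 (0.0771). With the length offset its log2 fold change was as large (-0.35) and the adjusted p was 0.0670.
RAB38 (ENSG00000123892), which with RAB32 builds melanosomes and other lysosome-related organelles, measured 10.4, 10.8 and 9.12 CPM in siCTRL and 7.13, 8.37 and 8.20 CPM in siMatrin3, a log2 change of -0.36 (SE 0.0922, adjusted p from edgeR 0.0337). The gap between the groups was smaller than the range within siCTRL. The RAB38 call was lost without siCTRL replicate 1 (0.0813), siCTRL replicate 2 (0.0835), siMatrin3 replicate 1 (0.102), siMatrin3 replicate 2 (0.0552) or siMatrin3 replicate 3 (0.0868). With the length offset its log2 fold change was as large (-0.36) and the adjusted p was 0.0802.
RAB12 (ENSG00000206418), which directs transferrin receptor from recycling endosomes to lysosomes, measured 39.3, 37.5 and 40.6 CPM in siCTRL and 35.7, 34.6 and 34.3 CPM in siMatrin3, a log2 change of -0.17 (SE 0.0426, adjusted p from edgeR 0.0328). It was the most abundant of the called RAB genes, at 25.0 ± 0.839 TPM in siCTRL and 22.3 ± 0.395 TPM in siMatrin3 (SD, n = 3), and the groups did not overlap. The RAB12 call was lost without siCTRL replicate 1 (0.0743), siCTRL replicate 3 (0.138), siMatrin3 replicate 2 (0.0961) or siMatrin3 replicate 3 (0.131), with the length offset (-0.14, 0.136) and in DESeq2 (0.0575).

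**Figure D1:**
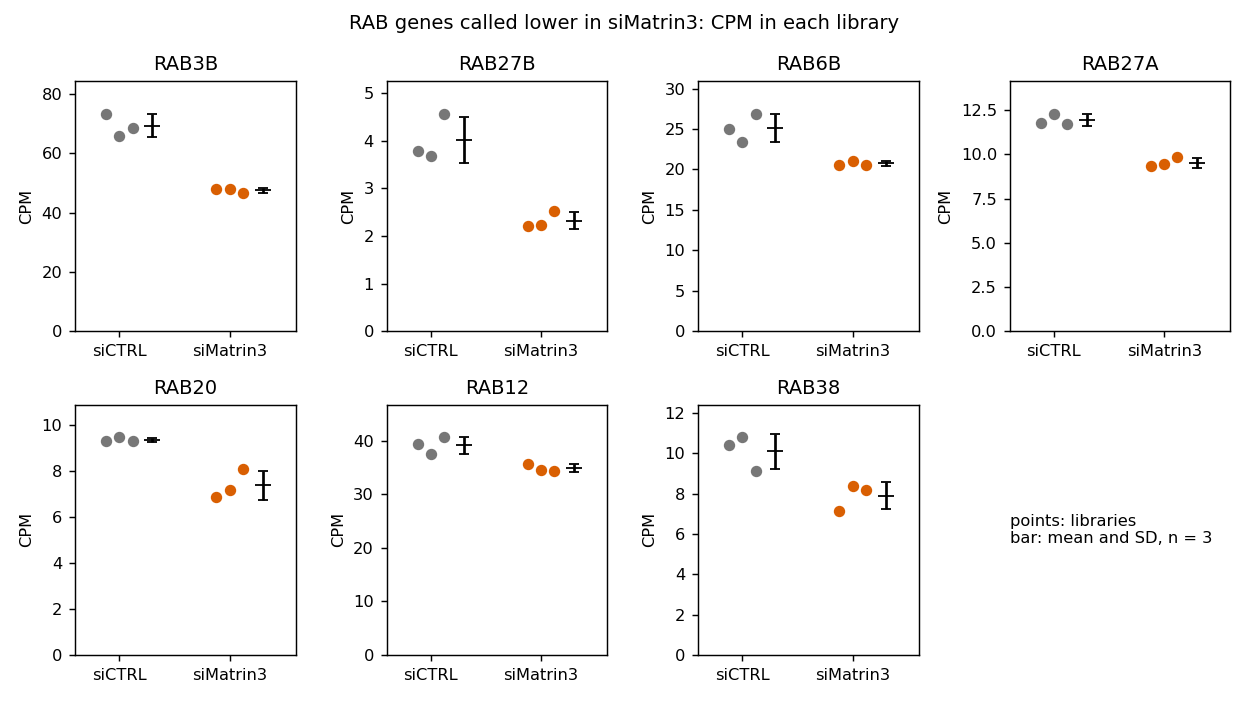
CPM (TMM-scaled, y axis from 0) of the 7 RAB genes that fell, 1 panel a gene. Points are the 3 siCTRL and 3 siMatrin3 libraries, and bars give the mean and SD; no siMatrin3 point reaches the lowest siCTRL point, and RAB3B and RAB27B have the largest log2 falls, 0.54 and 0.79.

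Most RAB mRNA came from members that were not called. The 5 highest by mean TPM, RAB11A, RAB7A, RAB25, RAB5C and RAB1B, held 37.6% of the summed RAB TPM. RAB11A, the central RAB of recycling endosomes, measured 159.47, 145.26 and 152.73 TPM in siCTRL and 148.79, 154.68 and 157.07 TPM in siMatrin3 (log2 fold change 0.075, interval -0.019 to 0.17). RAB7A, which drives late endosome and lysosome fusion, measured 145.61, 137.36 and 140.78 against 145.05, 148.02 and 140.46 TPM (0.046, interval -0.051 to 0.14). For both, the groups overlapped in TPM, and the intervals, which come from the fit on counts, held 0. In CPM, RAB11A did not overlap, at 121, 113 and 119 in siCTRL and 122, 126 and 124 in siMatrin3. RAB5C of early endosomes measured 93.9 ± 0.644 and 93.7 ± 2.01 TPM (SD, n = 3; interval -0.064 to 0.11). RAB1B, which acts in export from the endoplasmic reticulum, measured 95.4 ± 2.81 and 90.1 ± 3.25 TPM (SD, n = 3; interval -0.16 to 0.036). In the order of level, RAB11A and RAB7A did not overlap in siCTRL with RAB25, and RAB5C and RAB1B overlapped with each other in both groups.

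RAB25, the RAB11 relative of epithelial cells, measured 112.54, 110.75 and 112.19 TPM in siCTRL and 104.67, 103.24 and 103.83 TPM in siMatrin3. The groups were narrow and did not overlap, yet the log2 fold change of -0.12 (SE 0.0395, interval -0.20 to -0.030) did not pass the threshold (edgeR adjusted p = 0.0853). It passed with upper quartile scaling (-0.14, adjusted p = 0.0488), which was the sole alternative to call a recycling RAB. The summed epithelial markers, given above, were also lower in siMatrin3, and most of that sum was KRT8 and KRT18. KRT18 had a log2 fold change of -0.15 (edgeR adjusted p = 0.0330), KRT8 -0.12 (0.175), EPCAM 0.028 (0.676) and CDH1 -0.017 (0.833), and their part in the RAB25 value was not tested. All libraries are of the HCT116 line, and in bulk RNA a change in some of the cells and a change in every cell cannot be told apart.

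The 4 other uncalled members with the smallest p went in both directions. RAB31, a RAB5 relative that moves mannose 6-phosphate receptors, measured 27.14, 27.05 and 27.55 TPM in siCTRL and 28.91, 29.36 and 29.65 TPM in siMatrin3, a log2 fold change of 0.12 (interval 0.030 to 0.21, edgeR adjusted p = 0.0892). Among the 52 tested RAB genes it was the sole member whose siMatrin3 values all lay above siCTRL in TPM. RAB24, linked to autophagy, had -0.18 (adjusted p = 0.103), and it shares exon sequence with MXD3 on the same strand. RAB8B, a secretory RAB, had -0.16 (adjusted p = 0.138), and without siCTRL replicate 2 it passed (-0.23, adjusted p = 0.0233). RAB5B of early endosomes had -0.15 (adjusted p = 0.158).
In TPM, 15 of the 52 tested RAB genes lay lower and 1 higher without overlap between the groups, against 15.2% of all genes lower and 25.1% in either direction. In CPM the counts were 12 lower and 3 higher (RAB31, RAB8A and RAB11A), against 15.5% of all genes in each direction. The summed RAB TPM was 1600.4, 1575.9 and 1602.7 in siCTRL and 1532.7, 1560.2 and 1555.2 in siMatrin3, and RAB genes took 0.2315% to 0.2428% of the counts of a library.

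**Figure D2:**
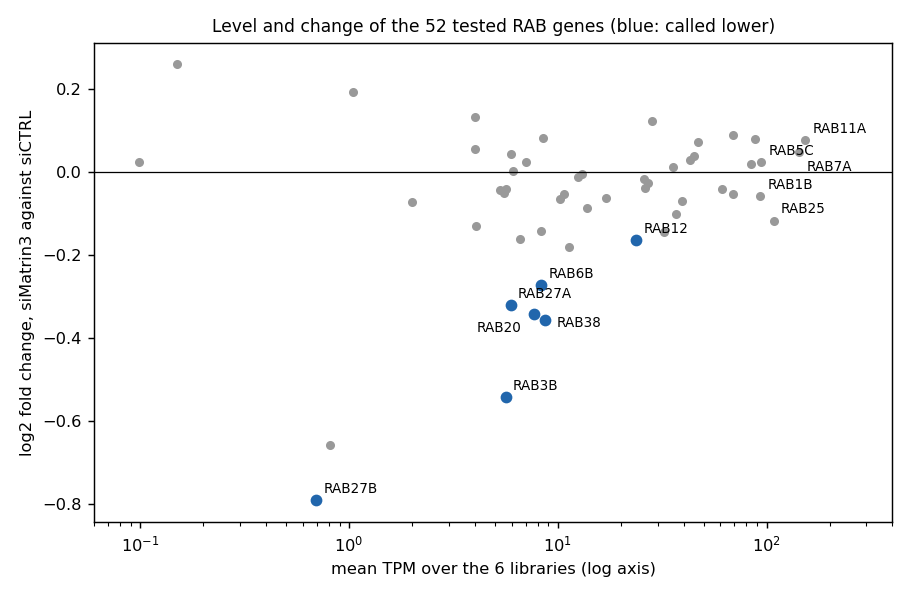
Log2 fold change, siMatrin3 against siCTRL (y axis), against mean TPM over the 6 libraries (x axis, log scale) for the 52 RAB genes tested, each a point. The 7 called genes (blue) lie low on the level axis, 6 of them under the median of 11.9 TPM, and the 5 highest members stay between -0.12 and 0.075.

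The called genes sat among the less abundant members. Of the 7, 0 were among the 20 RAB genes with the highest mean TPM, whose log2 fold changes ran from -0.15 to 0.12, and 6 were in the lower 26 of the 52. The same shares by level over all called genes were not computed. Over the RAB genes the Spearman correlation of mean TPM with log2 fold change was 0.195 (n = 52), and over all genes it was 0.218 (n = 16786). Both are correlations across genes measured in the same libraries, which are not independent replicates.

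Sorted by transport step, secretory RABs (from the endoplasmic reticulum and Golgi to exocytosis) had 4 of 23 tested genes lower and 0 higher, endocytic RABs 1 of 9 lower and 0 higher, and recycling RABs 0 of 9 either way. That is 17.4% of secretory and 11.1% of endocytic RABs, against 5.97% of all genes called lower. The medians of the log2 fold changes were close to each other, at -0.044, -0.040 and -0.053. With classes of 9 to 23 genes, 1 gene moves these shares a good deal, and no test of a difference between the arms was made. The called genes RAB12 and RAB38 were placed in classes outside these arms. RAB12 acts between recycling endosomes and lysosomes, so the endocytic and recycling counts depend on where it was placed. With the length offset the secretory count was 1 (RAB3B) and the endocytic count 0. Without siCTRL replicate 1, siCTRL replicate 2, siCTRL replicate 3, siMatrin3 replicate 1 or siMatrin3 replicate 2 the endocytic count was also 0.

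Within the secretory arm, post-Golgi RABs had 3 of 11 lower (RAB3B, RAB27A and RAB27B), and ER-Golgi RABs 1 of 12 (RAB6B), which is 27.3% and 8.33% against 5.97% of all genes called lower. The exocytic RABs with the highest levels, RAB10, RAB13 and RAB8A, had log2 fold changes of 0.078 (interval -0.024 to 0.18), 0.089 (-0.040 to 0.22) and 0.071 (-0.018 to 0.16), and none was called. Among Golgi RABs, RAB19 had the lowest fitted value, -0.66, with an interval from -1.44 to 0.13 and at most 1.2 TPM in any library (adjusted p = 0.278). RAB6C, a retrotransposed copy of RAB6A that can share its reads, was at no more than 0.14 TPM and its interval ran from -0.98 to 1.03. The depth could not show a difference of moderate size for these 2 genes.
The lysosome-related class had 1 of 3 lower (RAB38; all genes 5.97%), beside RAB29, a partner of the kinase LRRK2, at -0.012, and RAB36 at 0.13. The remaining class had 1 of 8 lower (RAB12), 12.5% against the same 5.97%. RAB28, a RAB of cilia, lay at 8.54, 9.07 and 8.93 TPM in siCTRL and 7.71, 7.35 and 7.96 TPM in siMatrin3 without passing the threshold (adjusted p = 0.225).

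**Figure D3:**
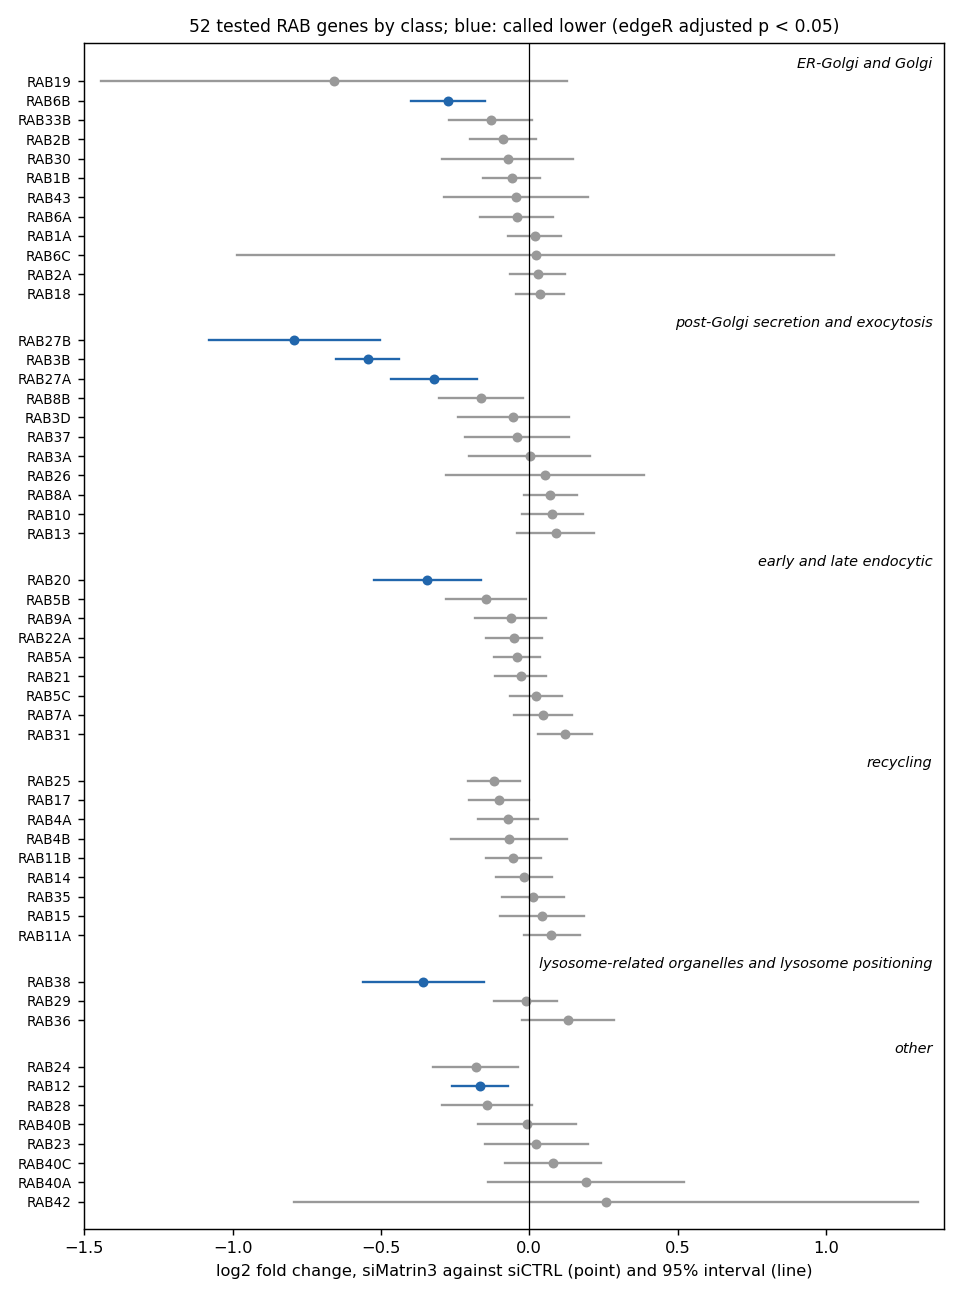
Log2 fold change, siMatrin3 against siCTRL (points), with 95% intervals (lines) from edgeR for the 52 RAB genes tested, grouped by transport step. Blue genes passed an adjusted p of 0.05: 3 in post-Golgi secretion, 1 in ER-Golgi transport, 1 endocytic, 1 lysosome-related and 1 other, all lower.

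By summed TPM, the recycling RABs went from 491.9 ± 3.89 to 474.0 ± 6.49 (SD, n = 3), with no overlap between the groups. The secretory RABs went from 615.5 ± 9.52 to 603.0 ± 4.74 and the endocytic RABs from 382.6 ± 3.13 to 377.9 ± 2.51 (SD, n = 3), with overlap in both. The recycling arm, with no called gene, had sums that did not overlap. The secretory arm, with 4 called genes that each had a mean of at most 8.58 TPM, had sums that did. Lower sums without overlap were not particular to the recycling RABs. They were also found for ER-Golgi RABs within the secretory arm, the lysosome-related class, the remaining class and all RAB genes together. RAB25, given above, is part of the recycling sum. The median change over all genes was also slightly negative in both limma fits on TPM. The share of other gene sets with sums that do not overlap was not measured.

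Paralogues can cover for each other, so the balance within close RAB subfamilies was measured as the log2 ratio of TPM of gene pairs in each library. Of 17 pairs, 5 had ratios that did not overlap between the groups. In TPM, 25.1% of all single genes tested did not overlap, and the share over other gene pairs was not measured. Pairs of a subfamily share members, so RAB3A/RAB3B and RAB3B/RAB3D both hold RAB3B. With 3 libraries against 3, the exact two-sided permutation test cannot go below p = 0.1, which each of the 5 reached, and the value adjusted over the 17 pairs was 0.340. The largest shift was RAB3A against RAB3B, at -0.18, -0.19 and -0.076 in siCTRL and 0.48, 0.29 and 0.50 in siMatrin3. RAB3A was thus below RAB3B in every siCTRL library and above it in every siMatrin3 library. RAB3A itself, best known from synaptic vesicles, measured 6.05 ± 0.360 and 6.10 ± 0.407 TPM (SD, n = 3; log2 fold change 0.001, interval -0.20 to 0.20). RAB3D, a granule RAB of exocrine cells, measured 11.2 ± 1.19 and 10.3 ± 1.01 TPM (SD, n = 3; -0.054, interval -0.24 to 0.13), and it overlaps TMEM205 on the same strand. The share of RAB3B in the sum of these 3 went from 28.1% ± 2.10 to 21.7% ± 0.842 (SD, n = 3).

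The RAB3B to RAB3D ratio moved by -0.44, RAB22A to RAB31 by -0.19, RAB11A to RAB25 by 0.12 and RAB5A to RAB5C by -0.082, each without overlap. RAB6A, the ubiquitous relative of RAB6B, measured 62.6 ± 1.43 and 59.5 ± 3.90 TPM (SD, n = 3; log2 fold change -0.042, interval -0.16 to 0.080), and the RAB6A to RAB6B ratio moved by 0.014 in TPM with overlap and by 0.23 in expected counts. RAB27A to RAB27B moved by 0.35 with overlap (exact permutation p = 0.4). RAB38 stood alone, as its relative RAB32 was at 0. With expected counts in place of TPM, 11 of the 17 pairs did not overlap, counting both directions. In CPM, 15.5% of all single genes lay lower and a further 15.5% higher without overlap. Ratios of pairs that share members are not like single genes, and the share over other gene pairs was not measured.

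**Figure D4:**
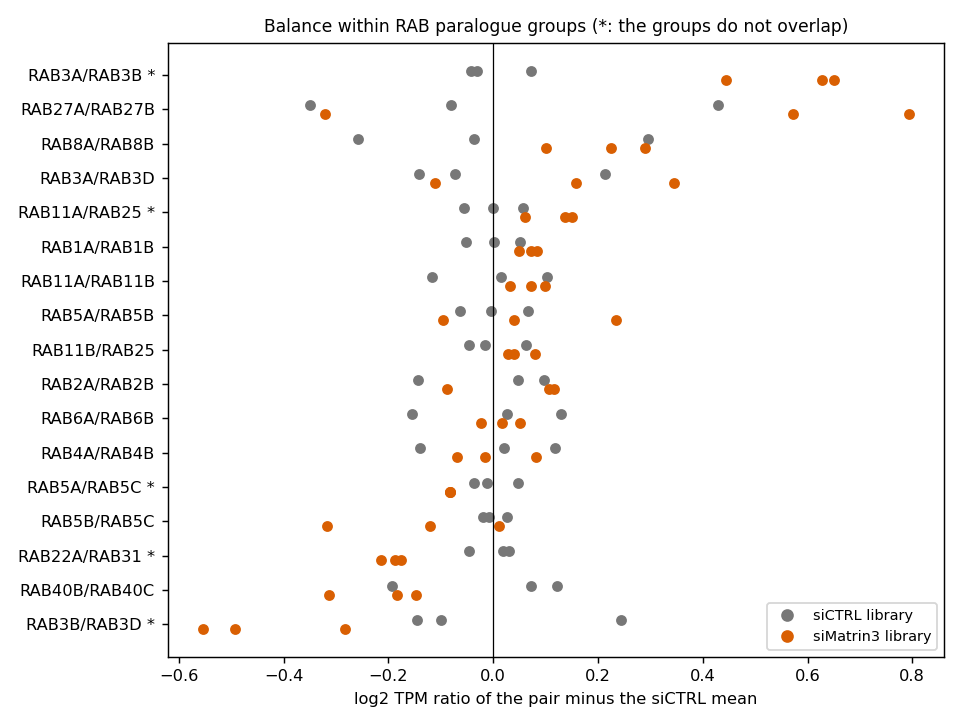
Log2 TPM ratio of 17 RAB pairs in each library minus the siCTRL mean of the pair (x axis), with siCTRL libraries in grey and siMatrin3 libraries in orange. The 5 pairs with a star do not overlap, led by RAB3A/RAB3B with a shift of 0.57.

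Weighted transcript length, which moves when a gene uses longer or shorter transcripts, could be tested for 47 RAB genes. With limma, 0 were called, and 2 had an unadjusted p under 0.05, against 6.09% of all 11984 genes tested, of which 1 was called (0.00834%). RAB9A, which returns receptors from late endosomes to the Golgi, went from 1298, 1333 and 1314 to 1378, 1445 and 1369 bases (log2 difference 0.087, adjusted p = 0.694). Its TPM went from 18.0 ± 0.0551 to 15.8 ± 0.147 (SD, n = 3) with no overlap, while its CPM groups overlapped (log2 fold change -0.063, interval -0.18 to 0.057). RAB25 went from 1031, 1049 and 1033 to 1021, 1017 and 1017 bases (log2 difference -0.027, adjusted p = 0.808).

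The regulators of the RAB cycle moved in both directions. Of 170 tested genes in 4 lists (prenylation and GDI, GEFs, GAPs and effectors), 8 rose and 13 fell, 12.4% against 11.0% of all genes, with a median log2 fold change of -0.019. The pooled count was 5 without siCTRL replicate 3, 9 without siMatrin3 replicate 2 and 7 without siMatrin3 replicate 3. In the prenylation and GDI list 1 of 15 fell (6.67%). This was RABGGTA, the alpha subunit of the RAB prenyl transferase, which measured 18.02, 22.16 and 20.29 TPM in siCTRL and 16.74, 16.53 and 17.77 TPM in siMatrin3 (log2 fold change -0.20, edgeR adjusted p = 0.0393). Its call held without siCTRL replicate 1, and without each of the other 5 libraries in turn the adjusted p ran from 0.0753 to 0.140. The RABGGTA call was also lost with the length offset, in DESeq2 and in limma on log2(TPM + 1) and log2(TPM + 0.1).

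Among 53 GEFs, 5 rose and 3 fell (15.1% against 11.0% of all genes, median 0.004), and with upper quartile scaling 2 rose and 4 fell. Calls in the GEF list numbered 3 without siCTRL replicate 1, 5 without siCTRL replicate 2, 2 without siCTRL replicate 3, 3 without siMatrin3 replicate 2 and 3 without siMatrin3 replicate 3. RAB3IP, or Rabin8, the exchange factor of RAB8, measured 11.24, 11.31 and 10.53 TPM in siCTRL and 8.14, 8.94 and 9.14 TPM in siMatrin3 (log2 fold change -0.45, edgeR adjusted p = 0.000633). With the length offset RAB3IP had -0.32 (edgeR adjusted p = 0.0211). RAB3IP lost its call in limma on log2(TPM + 1) (adjusted p = 0.0597) and on log2(TPM + 0.1) (0.0572). It overlaps an unnamed gene on the same strand. Its substrates RAB8A and RAB8B, as given above, were not called. RIN1, an exchange factor of RAB5, rose from 20.44, 19.43 and 18.37 TPM to 24.28, 23.40 and 25.44 TPM (0.30 in log2, edgeR adjusted p = 0.00645). RIN1 kept its call in all 16 alternatives. DENND5A had 0.26 (adjusted p = 0.0132; 0.0639 without siCTRL replicate 3), and its call was also lost with the length offset and in both limma fits. DENND1C, of the family that activates RAB35, had -0.16 (adjusted p = 0.0309), and it held without siCTRL replicate 2 and ran from 0.0701 to 0.0974 without each of the other 5 libraries. DENND1C also lost its call with the length offset and in DESeq2.

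Among 40 GAPs, 1 rose and 2 fell (7.5% against 11.0% of all genes, median -0.027). The GAP count was 0 without siCTRL replicate 3 and 1 without each of the 3 siMatrin3 libraries in turn. TBC1D15, a GAP of RAB7, had 0.19 (edgeR adjusted p = 0.0180; 0.0671 without siCTRL replicate 3, 0.0524 without siMatrin3 replicate 1 and 0.0533 without siMatrin3 replicate 2). SGSM1 had -0.24 (0.0156; 0.0571 without siCTRL replicate 3, 0.0515 without siMatrin3 replicate 2 and 0.0746 without siMatrin3 replicate 3). EVI5, linked to RAB11 and overlapping the pseudogene HMGB3P9 on the same strand, had -0.28 (0.0368; 0.0681 without siCTRL replicate 2, 0.134 without siCTRL replicate 3, 0.0892 without siMatrin3 replicate 1 and 0.129 without siMatrin3 replicate 3). The calls of TBC1D15, SGSM1 and EVI5 were also lost with the length offset and in both limma fits on TPM.

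Among 64 effectors, 2 rose and 7 fell (14.1% against 11.0% of all genes, median -0.025). The effector count was 3 without siCTRL replicate 3, 5 without siMatrin3 replicate 2 and 3 without siMatrin3 replicate 3. UNC13D, or Munc13-4, through which RAB27 primes granules, rose from 16.65, 19.28 and 16.57 TPM to 20.47, 19.63 and 19.75 TPM (0.26 in log2, edgeR adjusted p = 0.00584, and 0.21 with adjusted p = 0.0901 under the length offset), while RAB27A and RAB27B fell. MYO5B, the motor that moves RAB11 vesicles, which overlaps an unnamed gene on the same strand, fell from 19.54, 20.26 and 20.64 TPM to 17.36, 16.21 and 16.67 TPM (-0.24, adjusted p = 0.0138; 0.0590 without siCTRL replicate 3 and 0.0594 without siMatrin3 replicate 3), while RAB11A and RAB11B were not called. SH3TC2, a RAB11 effector of recycling endosomes, fell from 1.44, 1.53 and 1.25 TPM to 0.86, 0.93 and 0.97 TPM (-0.71 on counts, edgeR adjusted p = 0.00237). Its call was lost in limma on log2(TPM + 1) (adjusted p = 0.0695) and on log2(TPM + 0.1) (0.0893). VPS8, a subunit of the CORVET tether of early endosomes, had -0.29 on counts (adjusted p = 0.00185), but its TPM groups overlapped at 15.10, 13.89 and 13.41 against 15.51, 11.42 and 12.90, and with the length offset it had -0.072 (adjusted p = 0.751).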

How the data were processed

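The samples were 3 siCTRL and 3 siMatrin3 poly(A) RNA libraries of HCT116, grouped by the labels. The methods state a stranded kit and paired reads, and their time of harvest differs from the labels. Per the submitters' processing notes, cutadapt, STAR 2.5.1 and RSEM were run on hg19, although the methods state a different STAR release. The authors deposited expected counts (estimated counts), TPM scaled per library, and FPKM, which was not used. The deposited tables also give transcript and effective length per gene (a score in bases), averaged by the authors' RSEM. Names covered 88.3% of genes, and rows without took 0.941% of counts. Names, types and overlaps came from GENCODE on GRCh38, so coordinates are given for RefSeq promoters alone.

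The quasi-likelihood test of edgeR 4.0.16 (R 4.3.3, two-sided) was run on rounded expected counts after filterByExpr and TMM, with Benjamini-Hochberg adjustment over 16786 genes. The common biological coefficient of variation was 5.98%. Length used limma 3.58.1 on log2 length in genes with varying length and at least 50 counts in every library. Intervals are 95% intervals of the fit. RAB genes and lists were chosen with earlier results of these data known. Named were MATR3, each called RAB gene, the 5 highest, paralogues of called genes, the 5 uncalled with the smallest p and up to 4 called genes a list. Other RAB genes (RAB10, RAB13, RAB8A, RAB19, RAB6C, RAB29, RAB36, RAB28 and RAB9A) were named after their values were seen. TBC1D3, MICALCL and PECAM1 had no match, and 1 further gene list is not reported here. Results were recomputed with RLE or upper quartile scaling, without a filter, with 1 CPM in 3 libraries, the replicate block, leaving out each library, a length offset, DESeq2 1.42.0 (the tool of the study), limma on log2(TPM + 1) and log2(TPM + 0.1), and p under 0.01. No libraries were duplicates by a chi-square comparison of counts. The steps were tested on simulated data.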

Additional observations from a re-analysis of the deposited data

How the results depend on the processing

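RAB genes called numbered 7 with RLE scaling, no filter and 1 CPM in 3 libraries, 8 with upper quartile scaling, 6 in DESeq2, 1 with the length offset, 1 in limma on log2(TPM + 1), 1 on log2(TPM + 0.1), 2 at an adjusted p under 0.01 and 4 to 6 without 1 library. None was called higher in any of the 16 alternatives, and RAB3B was called in all of them. Over all genes, 706 were called with the length offset, 437 and 429 in limma at pseudocounts of 1 and 0.1, 561 at p under 0.01 and 759 to 1599 without 1 library. Secretory RABs called were 1 with the length offset, 1 and 1 in limma and 2 at p under 0.01. Endocytic RABs called were 0 with the length offset, 0 in both limma fits, 0 at p under 0.01 and 0 to 1 without 1 library. Recycling RABs called were 1 with upper quartile scaling. The 4 regulator lists held 4 calls with the length offset, 3 and 3 in limma, 5 at p under 0.01 and 5 to 17 without 1 library. Pairs that did not overlap were 11 with expected counts. Length called 0 RAB genes in every alternative run.

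The replicate block gave 8 RAB genes (RAB5B added, -0.15, adjusted p = 0.0300), 2 endocytic RABs and 34 calls in the 4 lists. Same-numbered libraries had correlations of deviations of 0.177, 0.0896 and 7.21e-05, so the numbers were not taken to pair the samples. Under the length offset RAB6B had a log2 fold change of -0.075 with lengths that varied between libraries, while RAB20 (-0.35) and RAB38 (-0.36) lost their calls with folds as large as before. The cause of the lower counts of calls was not tested. RAB27B, with 96 to 222 counts, is the member that depth limits most among those called.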

Other observations

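Related small GTPases outside the RAB names were read from the same fit, in which 11.0% of all genes tested were called. Of 25 ARF and ARL genes, which recruit coats and arrange the cytoskeleton at membranes, 1 rose and 2 fell (12%, median log2 fold change -0.046). ARFRP1, which acts at the trans-Golgi, measured 17.89, 17.46 and 17.64 TPM in siCTRL and 14.63, 14.92 and 15.16 TPM in siMatrin3 (-0.28, edgeR adjusted p = 0.00772) and kept its call in all 16 alternatives. ARL15 had -0.31 (adjusted p = 0.0192) and ARL2, which shares exons with a readthrough gene, had 0.21 (0.0194). Both were lost without siCTRL replicate 1 (0.0615 and 0.0567), siCTRL replicate 3 (0.0579 and 0.0691), siMatrin3 replicate 2 (0.0524 and 0.0766) or siMatrin3 replicate 3 (0.0835 and 0.0874). Their calls were also lost with the length offset and in both limma fits on TPM.

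Of 9 RAB-like genes with other names, RASEF alone fell, at no more than 0.24 TPM (-0.87, edgeR adjusted p = 0.0426), and without each library in turn its adjusted p ran from 0.0813 to 0.138.

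The median span of the locus, from first to last annotated base, was 71.6 kb for the 7 called RAB genes, 27.4 kb for the 45 not called and 27.2 kb for all genes with a span. The 7 ran from 29.9 kb (RAB12) to 178 kb (RAB27B), and the median over all called genes was not computed. Over the 52 RAB genes the Spearman correlation of span with log2 fold change was -0.128, and over all 16045 genes with a span it was -0.126, both across genes of the same libraries.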
